A study of Mus musculus with 6 samples.

Results

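The genes described here are 9 that encode parts of the podocyte slit diaphragm and of the podocyte surface: Kirrel, Kirrel3, Cd2ap, Magi2, Plce1, Podxl, Dag1, Thsd7a and Sema3g. They were chosen by name from the 12803 genes of a table of log2 CPM (counts-per-million), and all 9 had a row. Messenger RNA was sequenced from 6 libraries of cultured mouse kidney podocyte cells. Of these, 3 (KO) came from a line labelled as podocyte-derived and as a knockout of Myosin 1e, and the WT group held 3 libraries of the wild-type murine podocyte line that the labels call Mundel. A heterozygous genotype is mentioned in the design text but was not analysed here. With 1 cell line for each genotype, the deletion and any other difference between the lines cannot be told apart. How the cultures of a line were kept separate is not stated, so p-values measure the spread between these libraries, which may be technical.

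Podocytes wrap the glomerular capillaries with interlocking foot processes, and the slit diaphragm is the cell junction that bridges the gaps between them. Nephrin and the Neph proteins, of which Kirrel encodes Neph1, meet across the gap through their immunoglobulin domains, and adaptors such as CD2AP and MAGI2 tie them to actin and to signalling proteins. Podocalyxin, a negatively charged sialomucin, covers the apical face, and dystroglycan binds the laminin and agrin of the glomerular basement membrane on the basal face. Variants of Plce1, Magi2 and Cd2ap are among the inherited causes of nephrotic syndrome in humans, and THSD7A is a target of autoantibodies in membranous nephropathy.

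Levels are CPM from whole reads worked back from the deposited values, and are given as means ± SD of 3 libraries. The libraries held 35447096 to 42106461 reads in these 12803 genes, so that 3 reads equal 0.0703 to 0.0856 CPM. Fold changes are KO minus WT on the log2 scale from limma fitted across the 12616 genes that passed a filter on low values, and a gene passed the test at a Benjamini-Hochberg adjusted p under 0.05. All 9 genes passed the filter. The targeted gene Myo1e was at 18.9, 16.3 and 16.8 CPM in the KO libraries against 184, 180 and 168 CPM in WT. The gene thus followed the labels in all 6 libraries.

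Of the 9 genes, 7 fell and 2 rose in the KO line. The lines differed so widely that 68.1% of all genes tested passed, 33.8% lower and 34.3% higher in KO, and the groups did not overlap in 73.5%. The groups did not overlap in any of the 9. With 9 genes against that background, the number that passed is not itself a result about them, and their sizes are described instead. Their median log2 fold change was -1.88, against 0.01 over all genes tested. The 9 genes were chosen with earlier results of these data known, so these sizes only describe them. Plce1 and Sema3g were past 16-fold lower, a size that 3.75% of all genes tested reached, and Kirrel3 and Dag1 were the others past 4-fold lower, a size that 8.8% reached. Cd2ap and Podxl were the members that rose.

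**Figure D1:**
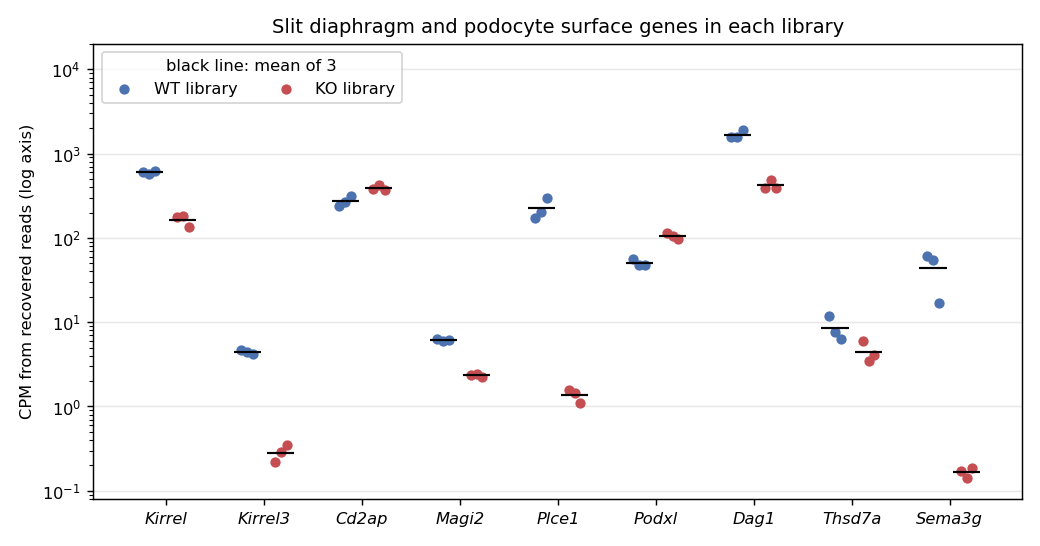
Level of each of the 9 genes in each library, in CPM from recovered reads on a log axis, with the WT libraries in blue, the KO libraries in red and a black line at the mean of 3. Plce1 and Sema3g went from 226 and 44.4 CPM in WT to 1.37 and 0.167 CPM in KO, while Podxl and Cd2ap were higher in all 3 KO libraries.

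The adhesion receptors of the slit are described first, with gene positions on GRCm38 from GENCODE M21. Kirrel (chr3:87078593-87174747, minus strand) was at 177, 182 and 136 CPM in the KO libraries and at 610, 570 and 629 CPM in the WT libraries. The KO line thus held 27.4% of the WT level, with the lowest WT library far above the highest KO library. On the log2 scale the fold change was -1.88 (SE 0.12, limma, adjusted p = 2.3e-06). Its relative Kirrel3 (chr9:34485894-35036716, plus strand), which encodes Neph2, was at 0.221, 0.285 and 0.345 CPM in KO and at 4.66, 4.4 and 4.24 CPM in WT. These KO levels rest on 9, 10 and 13 reads against 199, 170 and 150 in WT. This is a log2 fold change of -3.86 (SE 0.23, limma, adjusted p = 1.8e-06), which was -2.08 on the scale of log2(CPM + 1), which understates changes of low genes. The log2 fold change of Kirrel3 was the more negative, as the log2 difference between the 2 genes was 9.07 ± 0.49 in KO and 7.08 ± 0.11 in WT. Those values did not overlap, and the exact two-sided permutation test gave p = 0.1, the smallest that 3 libraries against 3 allow (0.113 adjusted over 9 gene pairs). On the scale of log2(CPM + 1) the shift between the lines was 0.21 in place of 1.99, and the libraries overlapped. Per kilobase of exon, Kirrel made up 99.2% of the summed Kirrel and Kirrel3 level in WT and 99.8% in KO. Kirrel2 is not in this sum.

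Several defining slit diaphragm genes had no row in the table used here and were not analysed: Nphs1, which encodes nephrin, the third Neph gene Kirrel2, and the calcium channel genes Trpc6 and Trpc5. Of 13 transmembrane slit diaphragm genes, 8 were tested, and 4 fell while 4 did not pass. Their median log2 fold change was -0.17. Besides Kirrel and Kirrel3, the junctional adhesion molecule Jam3 fell from 22.4 ± 1.6 to 2.39 ± 0.16 CPM. The cadherin Cdh3 was at 294 ± 26 against 358 ± 13 CPM, a log2 fold change of -0.29 (limma, adjusted p = 0.018). This call was lost without KO replicate 1 (limma, adjusted p = 0.0502) and without WT replicate 2 (0.0562). The giant protocadherin gene Fat1 was at 1739, 1861 and 993 CPM in the KO libraries against 1131, 1394 and 1490 CPM in the WT libraries. It did not pass (limma, adjusted p = 0.59, with a log2 fold change of 0.15). KO replicate 3 lay below every other library. Without it Fat1 passed as higher in KO (log2 fold change 0.44, adjusted p = 0.0352). The coxsackievirus and adenovirus receptor gene Cxadr, Fat2 and the ephrin gene Efnb1 also did not pass.

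Of the adaptors, Cd2ap (chr17:42792951-42876665, minus strand) was higher in the KO line. It was at 381, 420 and 369 CPM in the KO libraries and at 239, 269 and 316 CPM in the WT libraries. The groups did not overlap, although WT replicate 3 came close to the lowest KO library. Its log2 fold change was 0.51 (SE 0.11, 95% interval 0.25 to 0.77, limma, adjusted p = 0.0037). Its paralog Sh3kbp1, which encodes the adaptor CIN85, went the other way, from 34.7 ± 5.4 to 13.2 ± 3.1 CPM (log2 fold change -1.41). The log2 difference of Cd2ap over Sh3kbp1 was 4.91 ± 0.34 in KO and 2.98 ± 0.34 in WT, which did not overlap (exact permutation p = 0.1). Per kilobase of exon, Cd2ap made up 83.3% ± 3.4 of the pair in WT and 95% ± 1.2 in KO.

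Magi2 (chr5:19227036-20704792, plus strand) was low in both lines. The KO libraries held 2.36, 2.4 and 2.26 CPM and the WT libraries 6.28, 6 and 6.11 CPM, and the libraries within each line lay close together. Magi2 thus changed by -1.38 on the log2 scale (SE 0.14, limma, adjusted p = 4.9e-05). Magi2 exons overlap those of another annotated gene, Gm29254, and how reads of the shared part were assigned is not known. The other membrane-associated guanylate kinase scaffolds of this family differed in direction. Magi3 fell alongside Magi2, from 298 ± 25 to 104 ± 14 CPM (log2 fold change -1.52), whereas Magi1 rose from 26 ± 1.6 to 58.2 ± 8.8 CPM (log2 fold change 1.16). The log2 difference of Magi2 over Magi3 was -5.46 ± 0.15 in KO and -5.60 ± 0.09 in WT, values that overlapped (difference 0.14, SE 0.10, exact permutation p = 0.3). On the scale of log2(CPM + 1) this difference was 0.42 and the libraries did not overlap. That of Magi2 over Magi1 was -4.61 ± 0.18 in KO and -2.08 ± 0.12 in WT and did not overlap (exact permutation p = 0.1). Per kilobase of exon, Magi1 made up 6.49% ± 0.81 of the family in WT and 30.6% ± 0.47 in KO, while Magi2 was at 1.42% ± 0.078 and 1.16% ± 0.12. The summed level of the family was 38 ± 2.8 CPM per kilobase in WT and 18 ± 2.4 in KO.

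The wider list of slit diaphragm adaptors and signalling genes moved both ways. Of 35 tested genes, 15 rose, 9 fell and 11 did not pass, a share of 68.6% that lies near the background of 68.1%, with a median log2 fold change of 0.13. The atypical protein kinase C gene Prkcz rose from 2.63 ± 0.87 to 29.2 ± 2.1 CPM and the polarity gene Pard6b from 79.5 ± 21 to 206 ± 8.6 CPM. After Plce1, the furthest to fall was Pik3r1, the regulatory subunit of phosphoinositide 3-kinase, from 133 ± 17 to 42.5 ± 9.7 CPM (log2 fold change -1.67). The kinase gene Fyn, the scaffold Cask and the adaptor Nck1 were among those that did not pass, with log2 fold changes of 0.07, 0.02 and -0.03. The dendrin gene Ddn and the phosphatase gene Inpp5d were not analysed here.

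Plce1 (chr19:38481109-38785030, plus strand), which encodes phospholipase C epsilon, a Ras-regulated enzyme that cleaves phosphatidylinositol 4,5-bisphosphate, was among the members that fell most. It was at 1.57, 1.43 and 1.11 CPM in the KO libraries and at 174, 205 and 299 CPM in the WT libraries. The KO line held 0.608% of the WT level, from 156 reads against 25896. The WT libraries differed among themselves, with WT replicate 3 the highest, but this spread was small beside the gap between the lines. Plce1 had a log2 fold change of -7.31 (SE 0.21, 95% interval -7.80 to -6.83, limma, adjusted p = 3.1e-08), and -6.55 on the scale of log2(CPM + 1).

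The phospholipase C family differed in make-up between the lines. Among 12 tested members there were 3 that rose, 7 that fell and 2 that did not pass (median log2 fold change -1.39). The gamma enzyme Plcg2, known from signalling in blood cells, rose from 0.923 ± 0.18 to 78.3 ± 6.6 CPM (log2 fold change 6.38, SE 0.16, limma, adjusted p = 1.9e-08). Plcl1, which encodes a catalytically inactive relative, fell from 14.2 ± 2.3 to 0.0948 ± 0.073 CPM, a KO level that was 0.0561 CPM without KO replicate 1. Plcd1 fell from 49.9 ± 12 to 7.3 ± 1.5 CPM, Plch1 from 53 ± 2.9 to 9.23 ± 2.1 CPM and Plcb1 from 39.8 ± 5.8 to 8.25 ± 1.5 CPM. Plcg1, the isoform that binds phosphorylated nephrin, changed less (log2 fold change -0.51), and Plcd3 and Plcd4 rose by 0.49 and 0.47 on the log2 scale. Plcb4 did not pass, with 69.6 ± 2.9 CPM in KO against 69.6 ± 1 CPM, nor did Plcb3. Per kilobase of exon, Plce1 made up 10.9%, 13.9% and 20.5% of the family in the WT libraries and 0.124%, 0.122% and 0.0928% in the KO libraries. Plcg2 made up 0.227% ± 0.032 in WT and 24% ± 1.5 in KO. The summed level of the 12 genes differed less, at 94.3 ± 4.4 CPM per kilobase in WT and 75.9 ± 3.1 in KO. The log2 difference of Plce1 over Plcg1 went from 0.98 ± 0.45 in WT to -5.82 ± 0.20 in KO (exact permutation p = 0.1).

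**Figure D2:**
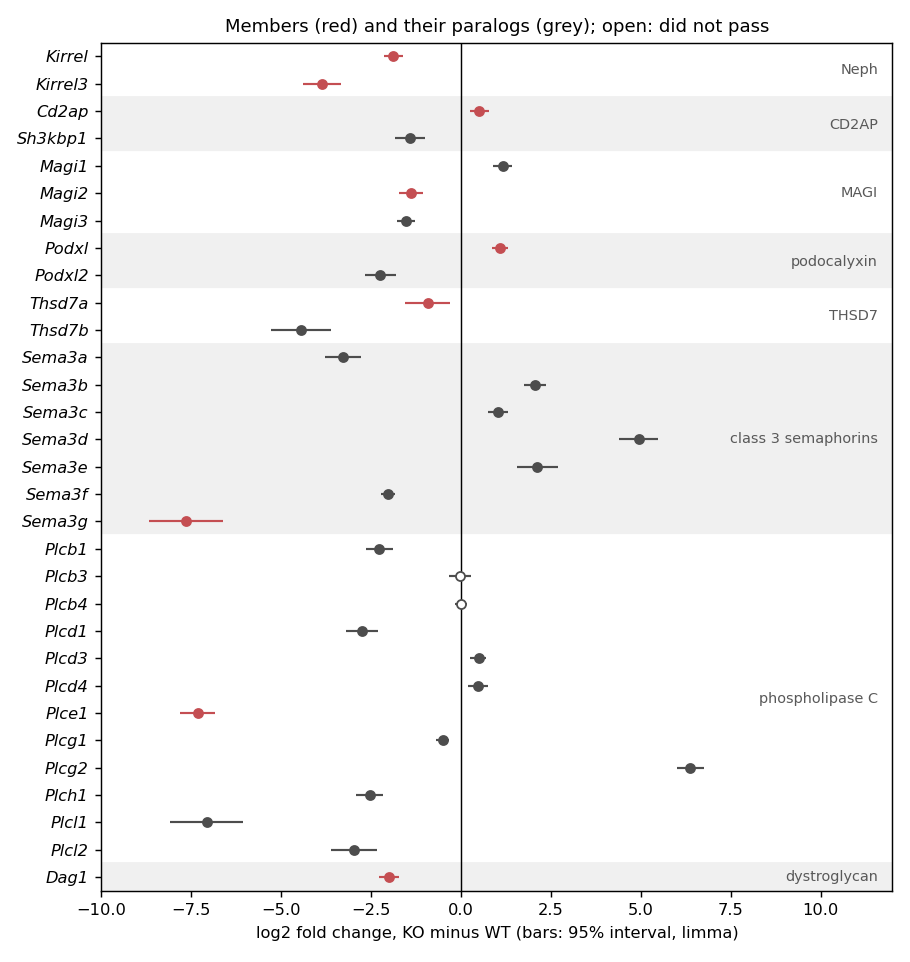
Log2 fold change of KO minus WT for the 9 genes (red) and for the paralogs tested beside them (grey), with 95% intervals from limma and open points for genes that did not pass. Kirrel and Kirrel3 both lie below 0, as do Thsd7a and Thsd7b, whereas some members and paralogs lie on opposite sides, with Cd2ap at 0.51 against Sh3kbp1 at -1.41, Podxl at 1.08 against Podxl2 at -2.24, and Plce1 at -7.31 against Plcg2 at 6.38.

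Sema3g (chr14:31217860-31230352, plus strand), a secreted class 3 semaphorin made by podocytes, was at 0.172, 0.143 and 0.186 CPM in the KO libraries, from 7, 5 and 7 reads. The WT libraries held 61.2, 54.9 and 17 CPM. The lowest WT library, WT replicate 3, stood well below the others and still far above every KO library. Sema3g thus had a log2 fold change of -7.65 (SE 0.44, 95% interval -8.67 to -6.63, limma, adjusted p = 1.4e-06). It was -8.24 without WT replicate 3 and -5.09 on the scale of log2(CPM + 1). In the WT libraries Sema3g and Plce1 were in opposite order, since Sema3g was lowest and Plce1 highest in WT replicate 3.

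The class 3 semaphorins and their receptors had 13 tested members, 5 higher and 7 lower in KO (median log2 fold change -0.74). Each of the 7 semaphorins passed. Sema3d rose from 1.63 ± 0.39 to 51 ± 13 CPM, Sema3e from 18 ± 6.5 to 75.2 ± 9.1 CPM, Sema3b from 7.29 ± 0.36 to 30.7 ± 4.6 CPM and Sema3c from 374 ± 39 to 760 ± 97 CPM. Sema3a, which is known to act on podocytes themselves, fell from 325 ± 65 to 33.9 ± 9.3 CPM, and Sema3f fell from 319 ± 30 to 77.6 ± 3.4 CPM. The summed level of the 7 genes was 141, 135 and 157 CPM per kilobase in KO and 154, 147 and 150 in WT, so the totals overlapped. Their make-up differed: Sema3c took 73.6% ± 3.5 of the total in KO and 34.8% ± 3.8 in WT, and Sema3f 10.4% ± 1.1 and 40.7% ± 3.5. Sema3g itself went from 6.48% ± 3.5 in WT to 0.0254% ± 0.0018 in KO. Of the receptors, the neuropilin Nrp2 fell from 282 ± 41 to 85.8 ± 11 CPM and Nrp1 from 420 ± 45 to 243 ± 48 CPM, while the plexin Plxna1 rose from 507 ± 56 to 744 ± 124 CPM. Plxna2 did not pass, with a log2 fold change of 0.20 (limma, adjusted p = 0.37), but did as higher in KO without KO replicate 3 (0.42, adjusted p = 0.024).

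**Figure D3:**
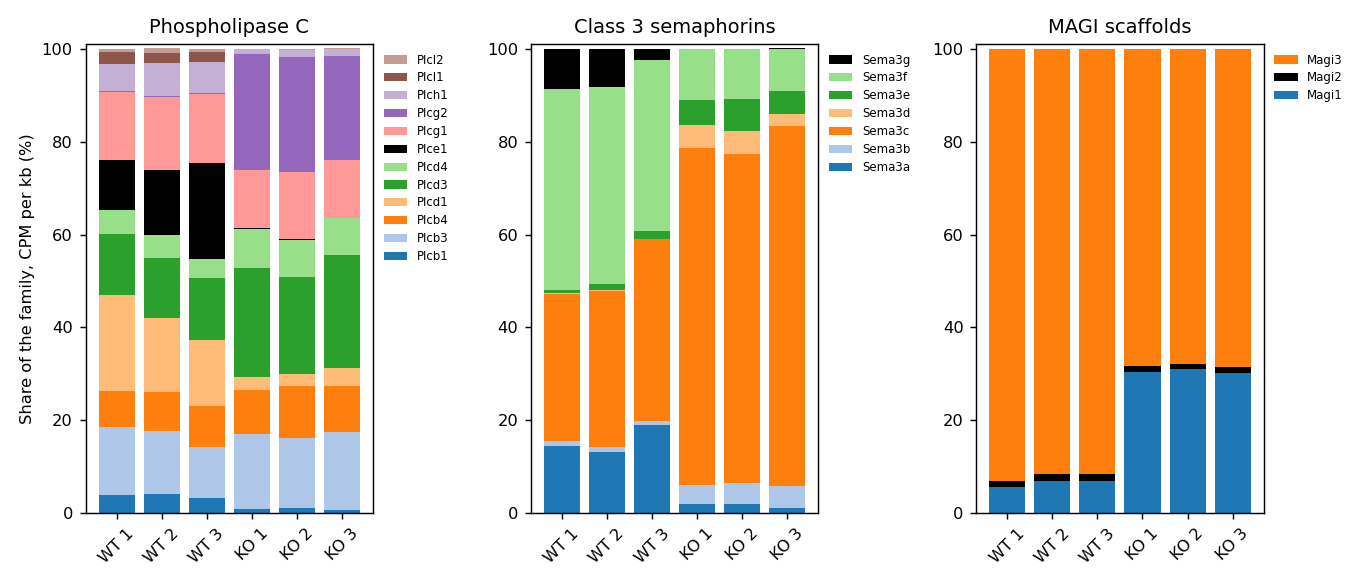
Share of each gene in the summed level of its family in each library, in percent of CPM per kilobase of exon, for phospholipase C, the class 3 semaphorins and the MAGI scaffolds, with the member gene in black. Plce1 went from 10.9% to 20.5% in the WT libraries to about nothing on this scale in KO (0.113%), and Sema3c and Magi1 took larger shares in all 3 KO libraries.

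Windows of 300 bases around the starts of Plce1 and Sema3g, the members that fell most, are shown beside those of Kirrel, which fell less, and Cd2ap, which rose. The sequences are from RefSeq on GRCm38.p6, from 250 bases before to 50 after a start, 5′ to 3′ on the gene's strand. Capitals mark CG dinucleotides, the sites that DNA methylation can occupy in mammals.
Plce1, plus strand, chr19:38523947-38524246: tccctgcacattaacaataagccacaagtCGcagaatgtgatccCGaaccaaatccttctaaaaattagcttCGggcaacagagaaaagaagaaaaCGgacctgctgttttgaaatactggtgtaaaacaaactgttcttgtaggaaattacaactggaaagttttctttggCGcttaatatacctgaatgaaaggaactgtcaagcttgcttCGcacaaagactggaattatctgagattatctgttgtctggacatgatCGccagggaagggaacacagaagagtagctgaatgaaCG
Sema3g, plus strand, chr14:31217623-31217922: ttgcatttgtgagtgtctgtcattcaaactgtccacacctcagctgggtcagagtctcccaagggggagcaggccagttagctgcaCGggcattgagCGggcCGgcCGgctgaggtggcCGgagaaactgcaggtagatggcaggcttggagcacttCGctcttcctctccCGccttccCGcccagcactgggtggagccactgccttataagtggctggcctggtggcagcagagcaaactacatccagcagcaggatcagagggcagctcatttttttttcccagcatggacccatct
Kirrel, minus strand, chr3:87174488-87174787: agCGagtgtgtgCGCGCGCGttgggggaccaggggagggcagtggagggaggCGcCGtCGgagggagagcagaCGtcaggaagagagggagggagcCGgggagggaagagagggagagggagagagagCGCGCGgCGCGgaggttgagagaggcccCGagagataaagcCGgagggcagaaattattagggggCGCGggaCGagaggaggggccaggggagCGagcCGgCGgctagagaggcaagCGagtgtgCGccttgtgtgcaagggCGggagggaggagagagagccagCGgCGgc
Cd2ap, minus strand, chr17:42876375-42876674: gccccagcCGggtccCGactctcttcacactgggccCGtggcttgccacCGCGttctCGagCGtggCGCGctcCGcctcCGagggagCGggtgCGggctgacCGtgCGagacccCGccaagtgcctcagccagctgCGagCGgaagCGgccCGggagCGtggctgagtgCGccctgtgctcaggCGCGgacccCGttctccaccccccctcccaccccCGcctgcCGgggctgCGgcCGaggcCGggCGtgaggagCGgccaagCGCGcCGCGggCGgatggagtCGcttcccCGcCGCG
The windows of Plce1 and Sema3g held 8 CG dinucleotides each, against 28 in that of Kirrel and 41 in that of Cd2ap, with a median of 7 over 32851 promoter windows of the same length. Their GC content was 41.0% for Plce1, 58.7% for Sema3g, 69.3% for Kirrel and 77.0% for Cd2ap, against a median of 52.7%. The Plce1 window lies inside the gene as GENCODE M21 draws it, at a later start than the first one annotated. Windows were at hand for 7 of the 9 genes, with 2 starts each for Magi2 and Dag1. Thsd7a held 19 CG dinucleotides, the windows of Dag1 47 and 30, and those of Magi2 29 and 4. The letters GTGGGAG, the core of a WT1 element, were found on either strand in Cd2ap alone and in 9.73% of all windows. GTAAACA, a forkhead motif, and TATAAA were in none of these windows and in 3.65% and 13.6% of all. GGAATG, the TEAD motif, was in 1 window of Magi2 and in 14.7% of all, and GGGCGG, the GC box, was in every one of these genes but Plce1 and in 35.7% of all. No match overlapped another motif, and these matches are descriptions of letters only.

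Podxl (chr6:31519488-31563981, minus strand), which encodes podocalyxin, was the member that rose most. It was at 115, 106 and 98.2 CPM in the KO libraries and at 55.8, 47.8 and 47.5 CPM in the WT libraries. Every KO library was above every WT library. The level was 2.11-fold higher in KO (log2 fold change 1.08, SE 0.10, limma, adjusted p = 1.8e-05). Its relative Podxl2, which encodes endoglycan, fell from 21.6 ± 3.7 to 4.58 ± 1 CPM, and the third member of the family, Cd34, was not analysed here. The log2 difference of Podxl over Podxl2 was 4.55 ± 0.31 in KO and 1.23 ± 0.12 in WT, the largest shift toward the member among the 9 pairs (3.32, SE 0.19, exact permutation p = 0.1). Podocalyxin is linked to actin through ezrin and the NHERF scaffolds. This group had 11 tested genes, 5 higher and 3 lower in KO (median log2 fold change 0.02). Ezr, which encodes ezrin, was at 1292 ± 38 against 674 ± 61 CPM, and Slc9a3r1, the scaffold NHERF1, at 158 ± 1.7 against 105 ± 2.2 CPM. The second scaffold Slc9a3r2 fell from 22.9 ± 1.4 to 13 ± 1.5 CPM and the chloride channel family gene Clic4 from 547 ± 45 to 171 ± 13 CPM. The ezrin relatives Msn and Rdx did not pass, at log2 fold changes of 0.02 and -0.02.

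Dag1 (chr9:108204634-108263958, minus strand), which encodes both subunits of dystroglycan, had the highest level per kilobase of the 9 genes in both lines. It was at 396, 483 and 387 CPM in the KO libraries and at 1584, 1592 and 1882 CPM in the WT libraries, and the groups were far apart. The KO level was 25% of the WT level (log2 fold change -2.0, SE 0.12, limma, adjusted p = 2e-06). Dystroglycan spans the membrane within a complex that includes sarcoglycans, sarcospan, dystrophin or utrophin, and syntrophins. The complex and its matrix ligands had 13 tested genes, 4 higher and 7 lower in KO (median log2 fold change -0.54). Sgce, which encodes epsilon-sarcoglycan, fell from 97 ± 9.9 to 2.82 ± 0.48 CPM, sarcospan Sspn from 50.4 ± 11 to 5.77 ± 1.2 CPM and the syntrophin Sntb2 from 195 ± 12 to 57.9 ± 5.5 CPM. Utrn, which encodes utrophin, fell less, from 436 ± 43 to 316 ± 24 CPM, and the log2 difference of Dag1 over Utrn went from 1.95 ± 0.12 in WT to 0.41 ± 0.10 in KO (exact permutation p = 0.1). Dmd, which encodes dystrophin, was instead higher in KO, at 17.9 ± 2.3 against 12.8 ± 0.056 CPM (log2 fold change 0.48). The ligands agrin and laminin alpha-5 were higher in KO, Agrn at 1563 ± 39 against 1069 ± 72 CPM and Lama5 at 1126 ± 46 against 773 ± 125 CPM, as was Sgcb at 28.2 ± 2.6 against 15.4 ± 2.8 CPM. The perlecan gene Hspg2 did not pass (limma, adjusted p = 0.089, log2 fold change -0.54), but did as lower in KO without WT replicate 1 (-0.77, adjusted p = 0.0208).

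Dystroglycan binds laminin through a sugar chain built by a series of enzymes. Of the 18 tested, 8 rose, 3 fell and 7 did not pass, with a median log2 fold change of 0.12. Large2, which extends the matriglycan chain, rose from 0.646 ± 0.15 to 17 ± 1.6 CPM. Pomgnt2, which acts earlier on the same sugar, rose from 12.6 ± 2.5 to 26.1 ± 2.4 CPM. The galactosaminyl transferase B3galnt2 fell from 53.3 ± 2.8 to 37 ± 5.8 CPM, and Dpm3, a subunit of the mannose donor synthase, from 14.8 ± 1.9 to 8.75 ± 1.5 CPM.

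Thsd7a (chr6:12311610-12749410, minus strand), which encodes a large thrombospondin-repeat protein of the podocyte foot process, had the smallest change among the members that fell. It was at 5.91, 3.42 and 4.06 CPM in the KO libraries and at 11.8, 7.63 and 6.33 CPM in the WT libraries. The highest KO library came close to the lowest WT library. Thsd7a had a log2 fold change of -0.93 (SE 0.27, 95% interval -1.55 to -0.30, limma, adjusted p = 0.016). The call was lost without KO replicate 2 (limma, adjusted p = 0.0586) and without KO replicate 3 (0.0539), and the adjusted p ranged from 0.0032 to 0.059 over the alternatives. Thsd7b, its paralog, fell from 4.63 ± 1.1 to 0.197 ± 0.088 CPM (log2 fold change -4.44, SE 0.37).

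The antigens of membranous nephropathy had 13 tested genes, Thsd7a included, of which 9 were lower and 3 higher in KO (median log2 fold change -0.93). The TGF-beta co-receptor Tgfbr3 fell from 159 ± 17 to 11.2 ± 1.7 CPM, the neural adhesion molecule Ncam1 from 164 ± 32 to 17.4 ± 2.5 CPM and the protease Htra1 from 251 ± 46 to 39.7 ± 0.91 CPM. Cntn1, which encodes contactin-1, had 0 reads in the WT libraries and 31.6 ± 13 CPM in KO, at least 1228-fold higher against a floor of 3 reads over the group. Pcdh7 was at 10.6 ± 5.3 against 1.66 ± 1.7 CPM, with a log2 fold change of 2.98. Leaving out WT replicate 1 gave 0.703 CPM for WT and a log2 fold change of 3.75. The main antigen gene Pla2r1 and Nell1 were not analysed here.

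Compared per kilobase of exon, the order of the 9 genes differed between the lines. In WT it ran from Dag1 at 265 ± 27 CPM per kilobase through Kirrel at 80.8 ± 4, Cd2ap at 17.3 ± 2.4, Plce1 at 14.1 ± 4.1, Sema3g at 9.78 ± 5.3 and Podxl at 9.18 ± 0.86 to Kirrel3, Thsd7a and Magi2 at 0.687 ± 0.033, 0.624 ± 0.21 and 0.54 ± 0.012. The ranges of Cd2ap and Plce1, of Plce1 and Sema3g, and of Sema3g and Podxl overlapped, as did those of Kirrel3 and Thsd7a and of Thsd7a and Magi2. In KO Dag1 led at 66.4 ± 8.3 CPM per kilobase, and Cd2ap, Kirrel and Podxl followed at 24.6 ± 1.7, 22.1 ± 3.4 and 19.4 ± 1.5, neighbours whose ranges overlapped. The other 5 lay at or below 0.325 ± 0.094, with Plce1 at 0.0858 ± 0.015 and Sema3g last at 0.0368 ± 0.0049. Among all genes with a length, Plce1 went from percentile 68.9 in WT to 3.6 in KO and Sema3g from 56.2 to 2.2, whereas Podxl went from 57.6 to 77.5.

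Genes with the most similar pattern were found as the smallest root mean square distance of centred log2 CPM over the 6 libraries, which is a description of these libraries only. For Plce1 the nearest was the actin bundler Fscn1 at a distance of 0.196, with levels of 642 CPM in WT and 4.45 CPM in KO. Kirrel3 lay nearest to Tgfbr3, at 0.106. Kirrel lay nearest to Rab3il1, at 0.0769, Magi2 to the membrane-curving adaptor Bin1, at 0.0451, and Cd2ap to the repair gene Ercc6, at 0.033. Podxl lay nearest to Lgalsl, at 0.0477, Dag1 to the DNA ligase gene Lig1, at 0.094, and Thsd7a to Pik3cd, at 0.106. Sema3g had no close neighbour, with Them7 nearest at 0.426.

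**Figure D4:**
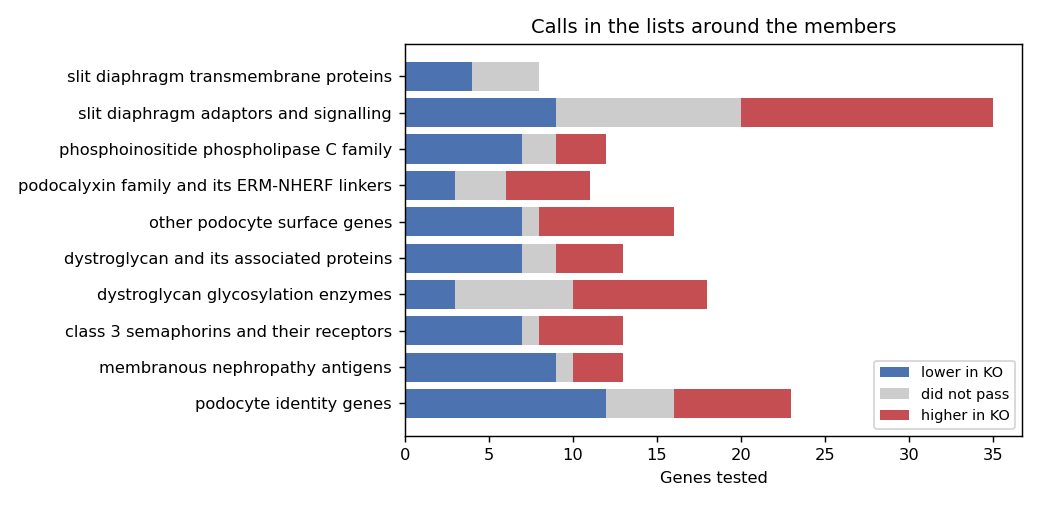
Number of tested genes that were lower in KO, did not pass or were higher in KO, for each list of genes around the 9 members. Of the transmembrane slit diaphragm genes 4 were lower in KO and 4 did not pass, and the dystroglycan glycosylation enzymes had 8 higher and 3 lower.

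The labels call both lines podocytes, so genes that define this cell type were read beside the members. From a list of 30 podocyte identity genes 23 could be tested, and 7 were higher and 12 lower in KO (median log2 fold change -0.65). These counts include the member Podxl among the higher genes and the targeted gene Myo1e among the lower. Nphs1, the transcription factor genes Tcf21 and Lmx1b, the phosphatase gene Ptpro, Dach1 and Robo2 were not analysed here. The transcription factor Wt1 was at 4.4 ± 2 CPM in WT and 0.125 ± 0.1 CPM in KO, and the KO level was 0.0674 CPM without KO replicate 3. Wt1 was low in WT as well, with 6.39, 4.4 and 2.4 CPM in the libraries. Per kilobase of exon its WT level lay at percentile 11.8 of all genes with a length. The forkhead factor Foxd1 fell from 38.5 ± 4.4 to 0.0784 ± 0.021 CPM and podoplanin Pdpn from 9.86 ± 1.8 to 0.298 ± 0.22 CPM. For Pdpn the KO level was 0.189 CPM without KO replicate 1, and the log2 fold change went from -5.19 to -4.56 without KO replicate 2. The genes of the list that rose most were Col4a3 and Col4a4, which encode type IV collagen chains of the mature glomerular basement membrane, and Tdrd5. Col4a3 rose from 8.74 ± 8.3 to 1252 ± 289 CPM and Col4a4 from 20.3 ± 19 to 707 ± 119 CPM. Their WT levels were 3.96 and 9.65 CPM without WT replicate 1. Leaving it out gave Col4a3 a log2 fold change of 8.27 in place of 7.54 and Col4a4 6.18 in place of 5.47. Tdrd5 rose from 0.297 ± 0.11 to 9.58 ± 1.7 CPM. The line with the higher Podxl and Cd2ap levels thus had Wt1 and Foxd1 near 0 and more Col4a3 and Col4a4.

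Markers of other cell types also moved between the lines, and their part in the results above was not tested. All 11 parietal epithelial markers were tested, with 5 higher and 6 lower in KO. Their summed level was 4828 to 5072 CPM in the KO libraries and 1418 to 1518 CPM in WT. The 5 that rose included the keratins Krt8 and Krt18, at 2065 ± 119 and 1070 ± 61 CPM in KO. The 6 that fell included Pax2, from 352 ± 16 to 60.7 ± 3.6 CPM, and Ncam1, from 164 ± 32 to 17.4 ± 2.5 CPM. Vcam1 fell from 134 ± 12 to 24.9 ± 8.8 CPM. Of 19 tubular epithelial markers 11 were tested, with 7 higher and 3 lower, and 8 had no row, Slc34a1 and Umod among them. The sums were 5092 to 5563 CPM in KO and 1567 to 2452 CPM in WT, where Cldn3 and Cldn7 had 0 reads. The 7 that rose were Krt7, Krt19, Cldn3, Cldn4, Cldn7, Cdh1 and Epcam. Krt19 rose from 0.018 ± 0.016 to 805 ± 75 CPM and Cldn4 from 0.0776 ± 0.09 to 1271 ± 25 CPM. Their WT levels rest on 2 and 9 reads in all. Cldn3 was at 331 ± 5.8 CPM in KO. Aqp1 fell from 640 ± 202 to 2.7 ± 0.77 CPM and Lrp2 from 331 ± 121 to 14 ± 5.1 CPM. Cdh16 fell from 975 ± 209 to 92.5 ± 27 CPM. Of 15 markers of mesangium, pericytes and fibroblasts 7 were tested, with 1 higher and 5 lower, and the sums were 459 to 784 CPM in KO and 2433 to 2742 CPM in WT. Only 3 of 12 endothelial markers had a row, summing to 14.5 to 15.5 CPM in KO and 48.4 to 53.1 CPM in WT, and 3 of 12 leukocyte markers, at 320 to 424 and 260 to 327 CPM. The samples were cultures of 1 cell line for each genotype, and these sums are RNA levels that do not count cells. Fewer cells of a type and less RNA per cell cannot be told apart in such bulk samples.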

How the data were processed

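Per the labels' protocols, an RNeasy kit gave the RNA, and an Illumina stranded mRNA kit made libraries from 100 ng. Per the submitters' processing notes, STAR 2.7.3a, Trimmomatic 0.39, edgeR, and featureCounts with Subread 1.6.4 were used on GRCm38. No source used here gives the annotation, strand setting, filter or prior. The authors deposited log2 CPM per library. The lowest value, -5.26, was the same in every column. Less that value in linear units, 100% of entries were a whole number of steps (tolerance 0.001 reads), which gave the reads, with a prior of 1 read on average. The second-highest library of every gene had at least 1.01 CPM, so genes low in all libraries were not analysed here. Replicates of a line differed by more than sampling noise (chi-square per gene of 22.2 to 58.5).

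The test was limma 3.58.1 in R 4.3.3, fitted to the deposited log2 CPM with a trend and no covariates, for genes above 0 log2 CPM in at least 3 of 6 libraries. The procedure was tested on simulated data. Gene pairs were compared with exact permutation tests. Of 10 planned pairs 9 had both genes. Exon lengths and positions came from GENCODE M21 (GRCm38), where 12662 symbols had 1 gene, and need not match the authors' annotation. Members and lists were chosen with earlier results of these data known. The members were all named, with up to 3 risen and 3 fallen genes of each list whose higher line averaged at least 3 log2 CPM, and paralogs of members; other genes given with values were chosen after their values were seen. Some results for named genes are not reported here. Alternatives covered the model, filter, scaling, pseudocount, pairing and leaving out libraries.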

Additional observations from a re-analysis of the deposited data

How the results depend on the processing

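Over 15 alternative fits, 7573 to 8743 genes passed, against 8590 in the fit reported, and 8 or 9 of the 9 members. Thsd7a lost its call without KO replicate 2 and without KO replicate 3, and the cause was not tested. The other 8 members kept direction and call in every fit. Of 152 tested list genes 117 passed, with 111 to 119 over the fits. Median-centring and quantile normalization moved the median of all genes by 0.0202 and 0.0481. Over the fits without single libraries, log2 fold changes ranged from -0.02 to 0.44 for Fat1, from -0.16 to 0.10 for Plcb3 (0.04 without KO replicate 2) and from -0.03 to 0.02 for Plcb4 (0.01 without KO replicate 1), all changing sign. Plcb4 was at 0.02 median-centred and 0.01 with quantile normalization. Tjp1, a slit diaphragm scaffold, passed (0.32) but not without KO replicate 1 or KO replicate 2.

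Same-numbered libraries had deviations from their group means that correlated at 0.101, 0.081 and -0.095, so the numbers were not taken to pair the samples. With the replicate number as a block 8395 genes, all 9 members and 117 list genes passed, and no call of a named gene changed. Of the 9 gene pairs 8 or 9 did not overlap under each setting tried, but on the scale of log2(CPM + 1) Kirrel and Kirrel3 overlapped and Magi2 and Magi3 did not. A quasi-likelihood test of recovered reads was planned and not run, since the deposited unit is log2; voom on those reads was. Kirrel3 and Sema3g in KO rest on 32 and 19 reads in all, which limits the precision of their folds.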

Other observations

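Of 16 tested genes from a list of other podocyte surface genes, 8 rose, 7 fell and 1 did not pass, where 34.3% of all genes tested rose and 33.8% fell. The list was not tested against that share. Enpep, which encodes aminopeptidase A, fell from 279 ± 80 to 0.621 ± 0.28 CPM, and the VEGF receptor Flt1 fell from 9.97 ± 5.1 to 2.03 ± 0.27 CPM. The tissue factor gene F3 rose from 227 ± 38 to 1349 ± 99 CPM, the receptor Gprc5a from 91.2 ± 5.2 to 476 ± 10 CPM and the laminin-binding integrin Itga3 from 955 ± 162 to 2256 ± 188 CPM. Itga3 and Dag1, both receptors for laminin, thus went opposite ways.

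The members differed in how closely the WT libraries lay together. The SD of log2 CPM over the WT libraries was 1.02 for Sema3g, at percentile 99.5 of all genes tested, and 0.46 for Thsd7a and 0.40 for Plce1, at percentiles 93.3 and 91.0. That of Magi2 was 0.03, at percentile 6.8. Plce1 was highest and Sema3g and Thsd7a lowest in WT replicate 3.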
